A study of Mus musculus with 14 samples.

Results

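Cytochrome P450 enzymes of the Cyp1 to Cyp4 families, UDP-glucuronosyltransferases (Ugt) and glutathione S-transferases (Gst) make up the odorant-metabolizing enzymes described here. They were chosen by a rule on gene symbols among the 51211 symbols that both expression tables hold, which gave 115 enzymes: 75 Cyp genes (3 Cyp1, 48 Cyp2, 7 Cyp3 and 17 Cyp4), 19 Ugt genes (9 Ugt1 and 10 Ugt2) and 21 Gst genes. The rule itself uses no measured value.

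RNA of whole olfactory epithelia was measured by bulk RNA sequencing in 14 mice at postnatal day 5 (P5), in 2 experiments. In the Kir2.1 experiment, 3 Kir2.1 mice were compared with 3 control mice, which the study's methods describe as littermates. Which of these mice shared a litter is not given by the labels. Kir2.1 mice carry Omp-IRES-tTA and a tetO transgene that encodes the potassium channel Kir2.1 with tauLacZ, so the channel is made in neurons that express Omp. The sample records call them Kir2.1-Off, the name the study uses for mice in which doxycycline later shut the channel off, but these mice were taken at P5. The control mice were heterozygous for OMP-IRES-tTA, so both groups carry the driver. In the PEA experiment, 4 wild type mice exposed to 2-phenylethylamine (PEA), an amine odorant, from P0 to P5 were compared with 4 wild type control mice. The sample records name C57BL/6 for all 14 mice, while the study's methods name CD-1 for PEA-exposed pups. Each library came from 1 mouse. Per the study's methods, odor vials stood in home cages that held the mother with her pups. The sample labels name no litter or cage, so differences between litters or cages cannot be told apart from exposure.

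Odorants are small and often fat-soluble molecules, and the olfactory mucosa holds enzymes that change them chemically. P450 enzymes add oxygen to such molecules, Ugt enzymes attach glucuronic acid and Gst enzymes attach glutathione, which makes the products more soluble and easier to export. Sustentacular cells, the supporting cells of the epithelium, and Bowman glands are known as the main sites of these enzymes in the nose, and olfactory neurons are not.

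The deposited values are gene-level estimates of reads scaled between mice, called normalized counts here. For a level that can be set beside that of another gene, the normalized count was divided by the length of the gene's exons in kilobases. The 2 experiments were normalized separately, and their libraries were made differently (poly-A selection and 40 bp unstranded reads for Kir2.1, removal of ribosomal RNA and stranded 150 bp reads for PEA), so no test was made across them. Kcnj2, the gene of Kir2.1, lay between 986 and 1274 normalized counts in control mice and between 17926 and 24193 in Kir2.1 mice. All 9 sustentacular markers and all 12 markers of mature olfactory neurons were detected in both experiments. Vomeronasal receptor genes and Trpc2, which belong to another organ, had a summed normalized count of 11714 for control mouse 1 of the Kir2.1 experiment, against 1620 to 2086 for the other 5. Among the 8 mice of the PEA experiment this sum ran from 577 to 9894.

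Control mice held most of their enzyme RNA in a few genes. Cyp2a5 had the highest level in both experiments, at 57019 ± 5892 normalized counts per kb in the Kir2.1 experiment (SD, n = 3) and 13165 ± 3167 in the PEA experiment (SD, n = 4). It is an oxidase of coumarin and many other small ring molecules. In the Kir2.1 experiment the levels per kb then ran in the order Gstm1 (47379.7 ± 4712), Cyp2g1 (42107 ± 6930.2), Ugt2a1 (28425 ± 3646) and Cyp2f2 (16379 ± 1415; SD, n = 3 each). The levels per kb of single control mice overlapped between Cyp2a5 and Gstm1 and between Gstm1 and Cyp2g1, but not between Cyp2g1 and Ugt2a1 or between Ugt2a1 and Cyp2f2. In the PEA experiment Ugt2a1 (10919 ± 1280.4), Cyp2g1 (9772 ± 1079.5), Gstm1 (3427 ± 499) and Gsta4 (3226 ± 629.8; SD, n = 4 each) followed. There the ranges of Cyp2a5 and Ugt2a1 overlapped, as did those of Ugt2a1 and Cyp2g1, while every control mouse was higher for Cyp2g1 than any was for Gstm1. Cyp2g1 is a P450 of the olfactory mucosa, Ugt2a1 is its olfactory glucuronosyltransferase, and Gstm1 is a glutathione transferase of the mu class.

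The 5 highest genes held 85.2% of the summed enzyme level per kb in the Kir2.1 experiment and 80.7% in the PEA experiment. By family, Cyp genes held 54.9% and 53.9%, Ugt genes 16.1% and 25%, and Gst genes 29.1% and 21.0%. Of the 12 enzymes highest in each experiment, 11 were shared, namely Cyp2a5, Cyp2g1, Cyp2f2, Cyp1a2, Ugt2a1, Ugt2a2, Gstm1, Gstm2, Gstm5, Gsta4 and Gstp1. The twelfth was Cyp4v3 (1124 ± 66.8 per kb) in the Kir2.1 experiment and Cyp2j6 (360.2 ± 34.9 per kb) in the PEA experiment. Across all 14 mice the 115 enzymes took between 0.812% and 1.5% of the summed normalized counts of a library.

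**Figure D1:**
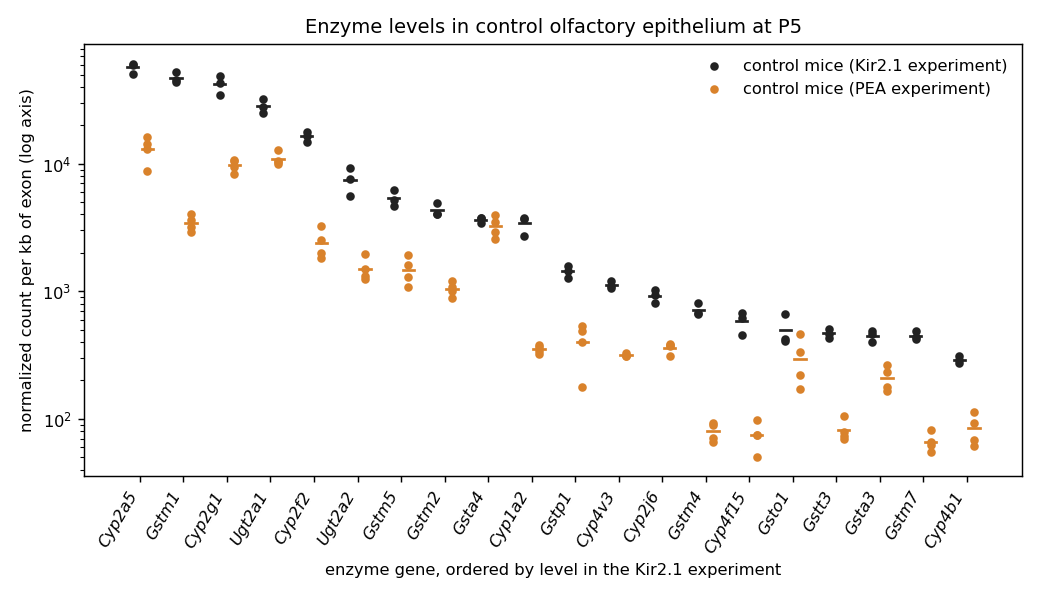
Level of the 20 enzymes that were highest in control mice of the Kir2.1 experiment, as normalized count per kb of exon on a log axis, with a point for each control mouse (3 black, 4 orange) and a short line at the mean. Cyp2a5 is highest in both experiments, and heights of black and orange points are not comparable because the tables were normalized separately.

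At the other end, 11 enzymes were listed at 0 in all 14 mice and 54 were above 0 in all 14. The Cyp2c genes, which are abundant in liver, were the largest low group. Of the 14 Cyp2c genes in the chromosome 19 cluster (GRCm38, 39007019 to 40187333), Cyp2c65 had the highest mean over control mice, 5.59 normalized counts per kb in the Kir2.1 experiment and 1.58 in the PEA experiment. The highest single control mouse of any of the 14 was at 8.16 per kb (Cyp2c65) and 3.80 per kb (Cyp2c40). Of the 8 Cyp2d genes, Cyp2d22 had the highest control means, 17.7 and 10.6 per kb, and no control mouse was above 21.5 and 11.8 per kb.

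Neighbouring genes of nearly the same sequence had very different levels. The Cyp2 cluster of chromosome 7 (GRCm38, 25802475 to 27158668) holds 13 of the enzymes, among them the high Cyp2g1, Cyp2a5 and Cyp2f2 and, between Cyp2s1 and Cyp2g1, the low Cyp2a4. Cyp2a4, a steroid hydroxylase in liver, was at 36.7 ± 8.21 normalized counts per kb in control mice of the Kir2.1 experiment (SD, n = 3) and at 1.98 ± 0.953 in those of the PEA experiment (SD, n = 4). The coding sequences of Cyp2a5 and Cyp2a4, each 1485 bases long in GENCODE vM21, differ at 23 positions and are 98.5% identical. The 60 coding bases shown are a stretch where reads of the 2 genes can be told apart, with capitals at the 4 bases that differ. It covers coding bases 596 to 655 of both genes.
Cyp2a5: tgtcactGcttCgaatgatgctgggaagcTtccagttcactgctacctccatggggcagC
Cyp2a4: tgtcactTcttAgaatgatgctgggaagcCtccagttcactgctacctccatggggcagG
The longest stretch without a difference is 216 bases, which is longer than a read in either experiment. Of the 31-base words in Cyp2a5 transcripts, 54.6% also occur in another gene, and 44.9% occur in Cyp2a4. How reads in these stretches were divided between Cyp2a5 and Cyp2a4 is an estimate, so the small values of Cyp2a4 are uncertain.

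The sequences before the 2 start sites were also nearly the same. Over the 250 bases before the start in RefSeq (GRCm38.p6), Cyp2a5 and Cyp2a4 are identical at 98.4% of aligned positions. The bases from 100 to 20 before the start are given for this pair, and for Cyp1a2, another of the high enzymes, with capitals at TATAAA read on the gene's own strand. They lie at chr7:26835239-26835319 on the plus strand for Cyp2a5, chr7:26307092-26307172 on the plus strand for Cyp2a4 and chr9:57683675-57683755 on the minus strand for Cyp1a2.
Cyp2a5: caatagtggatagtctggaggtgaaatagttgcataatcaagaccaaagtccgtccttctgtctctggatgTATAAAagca
Cyp2a4: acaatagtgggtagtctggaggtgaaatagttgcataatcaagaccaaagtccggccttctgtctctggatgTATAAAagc
Cyp1a2: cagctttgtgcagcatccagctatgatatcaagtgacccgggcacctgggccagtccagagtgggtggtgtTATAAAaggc
TATAAA began 29, 28 and 29 bases before the start in these 3 genes. It began between 20 and 40 bases before the start in 11 of 113 RefSeq promoters of the enzymes (9.73%) and in 1.99% of all 32851 promoters in the table. RefSeq promoters were found for 99 of the 115 enzymes, and several enzymes have more than 1. The 11 include Cyp2c38, Cyp2c55 and Cyp2c67, which were each listed at 0 in every mouse. Genes of similar sequence, such as Cyp2a4 and Cyp2a5, were counted separately. Of 11 promoters found for the 12 enzymes highest in control mice of the Kir2.1 experiment, 3 had TATAAA at that distance (Cyp1a2, Cyp2a5 and Gstm1). The letters TNGCGTG, bound by the aryl hydrocarbon receptor with its partner, were found on either strand in 2.65% of the enzymes' promoters and in 4.10% of all promoters. TGACNNNGC, bound by Nfe2l2 with its partner, was found in 4.42% and 10.2%. Sites of these 2 motifs can overlap, and each motif was counted on its own.

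**Figure D2:**
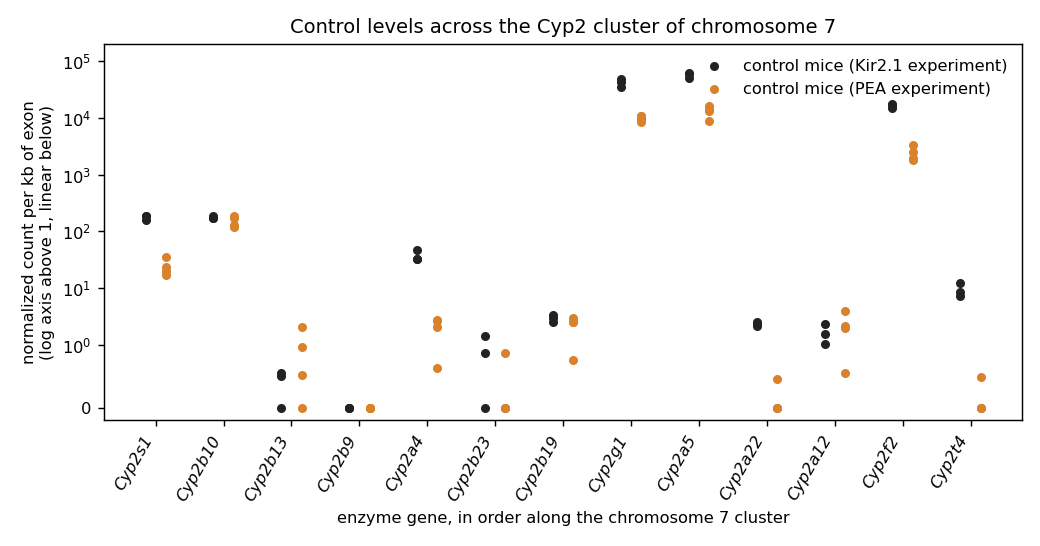
Levels of the 13 enzymes of the chromosome 7 Cyp2 cluster in their order along the chromosome, as normalized count per kb of exon in each control mouse, on an axis that is logarithmic above 1 and linear below. Cyp2g1, Cyp2a5 and Cyp2f2 lie above 1000 per kb in every control mouse, and Cyp2a4 lies far below Cyp2a5 in both experiments.

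The Kir2.1 comparison asks whether silencing olfactory neurons was accompanied by a change in these enzymes. No enzyme passed the test in Kir2.1 mice. Of the 5 most abundant enzymes, Cyp2a5 and Ugt2a1 lay within the range of the control mice in all 3 Kir2.1 mice, and Gstm1, Cyp2g1 and Cyp2f2 had 1 or 2 Kir2.1 mice outside it. Of the 115 enzymes, 56 had a mean of at least 10 normalized counts and were tested, and 23 were listed at 0 in every mouse of the experiment. The test was limma on log2(normalized count + 1), fitted over all 19807 genes that passed the same limit, and all log2 fold changes are on that scale, which understates changes of genes with low counts. It called 0 of the 56 enzymes at an adjusted p under 0.05, against 0.353% of all genes tested in either direction and 0.0757% higher. At an unadjusted p under 0.05, 3 enzymes were higher (background 4.93%) and 1 was lower (background 6.2%). The median log2 fold change of the 56 enzymes was 0.08, beside 0.0056 over all genes tested, with 38 values above 0 and 18 below. In a bulk tissue, fewer cells of a type cannot be told apart from less RNA per cell.

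Among the P450 enzymes, Cyp2a5 was at 124049, 104161 and 126389 normalized counts in control mice 1 to 3 and at 108649, 105979 and 118128 in Kir2.1 mice 1 to 3. Every Kir2.1 mouse lay within the range of the control mice (log2 fold change -0.09, SE 0.10, adjusted p = 0.836, limma with Benjamini-Hochberg adjustment). Cyp2g1 was at 104491, 74846 and 91623 in control mice and at 71639, 81749 and 79506 in Kir2.1 mice. Only Kir2.1 mouse 1 was below all controls for Cyp2g1 (log2 fold change -0.21, SE 0.13, limma adjusted p = 0.651). Cyp1a2, which oxidizes caffeine and aromatic amines, was at 7471, 5495 and 7564 in controls and at 5504, 5685 and 7055 in Kir2.1 mice, all within the control range. Cyp2f2, known for the oxidation of naphthalene in the airway, was at 33449.6, 30171 and 35882 in controls and at 48396, 33682 and 33074 in Kir2.1 mice. The Kir2.1 groups overlap for Cyp2f2, and Kir2.1 mouse 1 alone stands above the rest. Its log2 fold change of 0.19 went to 0.01 without that mouse.

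The smallest p of any enzyme belonged to Cyp2u1, a P450 that hydroxylates long-chain fatty acids (GRCm38 chromosome 3, 131288441 to 131303227). Its normalized counts were 159.7, 215 and 159.9 in control mice and 116, 116 and 104 in Kir2.1 mice. All 3 Kir2.1 mice were below all 3 controls for Cyp2u1. The log2 fold change was -0.66 (SE 0.17, unadjusted p = 0.0057), which did not pass the adjustment (adjusted p = 0.213, limma). Cyp4f17, of the family that oxidizes leukotrienes and fatty acids, was at 199, 160.1 and 184 in controls and at 229, 259.9 and 356 in Kir2.1 mice. The Cyp4f17 groups did not overlap either, and Kir2.1 mouse 3 was highest (log2 fold change 0.61, SE 0.19, limma adjusted p = 0.293). Its neighbour Cyp4f13 was at 475 to 586 in controls and at 569.8 to 687 in Kir2.1 mice, with overlapping groups. Cyp4x1 had the lowest log2 fold change of any enzyme, -0.84, between means of 21.8 and 11.8 normalized counts, and it was singled out after its values were seen.

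The fixed list of mucosal P450 enzymes holds further low and middle members. Cyp2e1, an oxidase of ethanol and small solvents, was at 91.1, 29.8 and 47.3 in controls and at 108, 66.1 and 95 in Kir2.1 mice, with overlapping groups. Cyp2b10 ranged from 357 to 389 in controls and from 373 to 444 in Kir2.1 mice. Cyp1b1 was at 59.2 to 152 in controls and 74.9 to 138 in Kir2.1 mice, so that the Kir2.1 mice lay inside the control range. Cyp2s1 and Cyp4b1, both known from airway epithelium, were highest in Kir2.1 mouse 1, at 1338 and 1170.4, against 795 to 900.3 and 619 to 699 in controls. The other 2 Kir2.1 mice were within the control range for both.

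Of the glucuronosyltransferases, the abundant Ugt2a1 was at 82988, 64373 and 71799 normalized counts in control mice and at 70039, 81557 and 72378 in Kir2.1 mice. All Kir2.1 mice lay inside the control range (log2 fold change 0.04, SE 0.12, limma adjusted p = 0.953), and the sign turned with median centring of the mice. Ugt2a2 was at 14161 to 23648 in controls and at 18351 to 20559 in Kir2.1 mice. Ugt2a1 and Ugt2a2 share exons at one locus (chromosome 5, 87459490 to 87490871), and 97.8% of the 31-base words of Ugt2a1 occur in another gene, so the division of reads between them is uncertain.

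The Ugt1 genes on chromosome 1 (88055388 to 88220002) also share exons, and 2 of them were the next by p. Of the 31-base words of Ugt1a7c, Ugt1a6b and Ugt1a6a, 55.7%, 84.2% and 53.0% occur in another gene. The division of reads among these 3 genes is therefore uncertain too. Ugt1a7c was at 94.5, 89.2 and 70.9 in control mice and at 207, 122 and 111 in Kir2.1 mice. All 3 Kir2.1 mice were above the controls for Ugt1a7c (log2 fold change 0.73, SE 0.27, limma adjusted p = 0.369), mouse 1 by the most. Ugt1a6b was at 115, 182 and 97.2 in controls and at 284, 176 and 196 in Kir2.1 mice, with overlapping groups (log2 fold change 0.75, SE 0.28, limma adjusted p = 0.380). Ugt1a6a, whose coding sequence is 98.4% identical to that of Ugt1a6b, was at 299, 303 and 387 in controls and at 739.6, 341 and 287 in Kir2.1 mice. Only Kir2.1 mouse 1 was outside the control range on the high side for Ugt1a6a.

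Of the glutathione transferases, Gstm1 was at 77621, 67353 and 64397 in controls and at 51034, 65666 and 62446 in Kir2.1 mice. Kir2.1 mice 1 and 3 lay below all controls for Gstm1 and mouse 2 did not (log2 fold change -0.23, SE 0.12, limma adjusted p = 0.567). Gsta4, which conjugates products of lipid oxidation, was at 4744, 4370.4 and 4728 in controls and at 5309, 5111 and 4913 in Kir2.1 mice. Its groups did not overlap, with a log2 fold change of 0.15 (SE 0.07, limma adjusted p = 0.491). Gsta3 did not overlap either, at 1723 to 2101 in controls and 2139 to 2843 in Kir2.1 mice. Gstt1 was at 269 to 359.6 in controls and at 334 to 427 in Kir2.1 mice, and the groups overlap. Gsto1, of the omega class, was at 849, 1330.1 and 829.9 in controls and at 2874, 1518 and 783 in Kir2.1 mice, the widest relative spread among the abundant Gst genes. Gstm2, Gstm5, Gstp1 and Gstk1 had log2 fold changes between -0.02 and 0.15. Among the 56 tested enzymes, the groups did not overlap for 4 with Kir2.1 mice higher (Cyp4f17, Ugt1a7c, Gsta4 and Gsta3), where 7.26% of all genes tested did so, and for 1 with Kir2.1 mice lower (Cyp2u1), where 9.04% did. Of the enzymes under the limit of 10, the groups also separated for Cyp2d26 (0 in every control, 1.03 to 3.08 in Kir2.1 mice) and Cyp4f37 (6.73 to 15.99 and 5.35 to 6.72), both named after their values were seen.

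**Figure D3:**
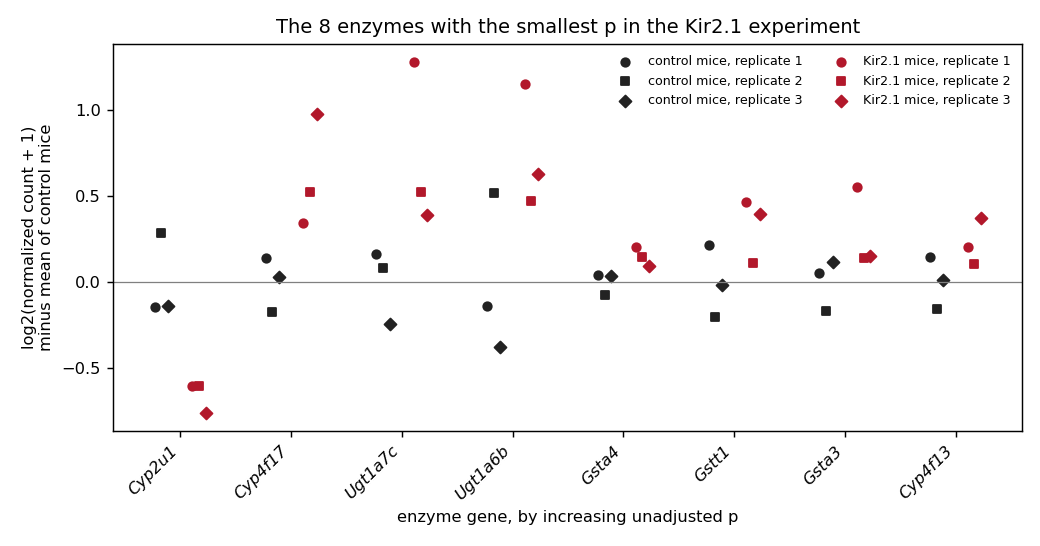
The 8 enzymes with the smallest unadjusted p in the Kir2.1 experiment, as log2(normalized count + 1) in each mouse minus the mean of the 3 control mice. Black symbols are control mice and red symbols are Kir2.1 mice, and symbol shape gives the replicate number, which does not pair mice. Cyp2u1 lies lower in all 3 Kir2.1 mice, and replicate 1 is the highest Kir2.1 mouse for Ugt1a7c, Ugt1a6b, Gsta4, Gstt1 and Gsta3.

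Kir2.1 mouse 1 was the highest of the 6 mice for 21 of the 56 enzymes tested, and the other 5 mice were highest for 4 to 10 each. The same mouse also had the highest sums for 5 markers of ciliated respiratory cells (22568 normalized counts, against 12905 to 16319 in the others) and for 5 markers of Bowman glands and ducts (32155, against 25356 to 29278). Within the gland list, Aqp3 was lowest in this mouse (15393). Its sums were also highest for basal cells (11079), endothelium (1419.5), erythroid cells (33607) and ensheathing glia (3291). They were lowest for mature neurons (106865) and immature neurons (27919). Whether other tissue in that sample had a part in the enzyme values was not tested. Leaving out Kir2.1 mouse 1 brought the enzymes that were higher at an unadjusted p under 0.05 from 3 to 1 and the median log2 fold change from 0.08 to 0.01. Sustentacular markers summed to 169928 to 231639 in controls and 210439 to 228395 in Kir2.1 mice, inside the control range. Cbr2 alone made up 96266 to 143487 of this sum in controls and 123246 to 134837 in Kir2.1 mice. Of the 9 sustentacular markers, 1 was higher and 0 lower at an unadjusted p under 0.05. Krt8 (20972 to 26988 in controls, 27353 to 29899 in Kir2.1 mice) and Krt18 (16546 to 20624 and 22546 to 24197.5) were higher without overlap. Sums of 5 erythroid markers (11005 to 19897 and 20242 to 33607) and 3 cartilage markers (1989 to 2863 and 3039 to 3261) were higher in Kir2.1 mice without overlap, with 5 of 5 and 2 of 3 genes higher at an unadjusted p under 0.05, and their part in the enzyme values was not tested. Markers of mature olfactory neurons summed to 146056 to 160454 in controls and 106865 to 120099 in Kir2.1 mice, without overlap. All 12 of these neuronal markers were lower at an unadjusted p under 0.05, and 2 passed the adjustment.

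The PEA comparison asks whether odorant exposure over the first days of life was accompanied by a change in the enzymes. A single enzyme passed the test: Cyp3a13 rose in PEA-exposed mice. Of the 115 enzymes, 46 passed the limit of 10 and were tested, and 17 were listed at 0 in every mouse. The 1 call among 46 enzymes stands beside a background of 0.179% of 17322 genes tested in either direction, or 0.144% higher. At an unadjusted p under 0.05, 7 enzymes were higher (background 8.93%) and 1 was lower (background 6.04%). The median log2 fold change was 0.04, beside -0.02 over all genes tested.

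Cyp3a13 is a P450 of the Cyp3a subfamily, which is known for oxidizing many drugs and steroids (ENSMUSG00000029727; GRCm38 chromosome 5, 137892932 to 137921619, minus strand). Control mice 1 to 4 had 64.1, 22.2, 29.8 and 24.5 normalized counts of Cyp3a13, and PEA-exposed mice 1 to 4 had 158, 111, 134 and 134. Every exposed mouse lay above every control, and control mouse 1 stood above the other 3 controls. The log2 fold change was 2.02 (SE 0.30, adjusted p = 0.0328, limma with Benjamini-Hochberg adjustment), between means of 35.1 ± 19.5 and 134 ± 19.3 normalized counts (SD, n = 4 per group). When single mice were dropped, the log2 fold change stayed within 1.86 to 2.35, but the adjusted p did not stay under 0.05. It was 0.00111 without control mouse 1 and between 0.0553 and 0.119 without any one of the other 7 mice. With Xist level as a covariate, since 2 of the 4 controls and 3 of the 4 exposed mice had the high Xist of females, the adjusted p was 0.0519, and without a trend of variance on level it was 0.0782.

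Only 0.308% of the 31-base words of Cyp3a13 transcripts occur in another gene. The other 6 Cyp3a enzymes, which lie together elsewhere on chromosome 5 (145345279 to 146113287), reached no more than 5.08 normalized counts in any mouse of the PEA experiment, and 3 of them were listed at 0 in every mouse. The bases from 100 to 20 before the RefSeq start of Cyp3a13 (GRCm38.p6, chr5:137921639-137921719, minus strand) are shown because it is the enzyme that differed. No TATAAA and no match to the motifs of the aryl hydrocarbon receptor or Nfe2l2 was found in the 250 bases before the start, so no letter is in capitals.
Cyp3a13: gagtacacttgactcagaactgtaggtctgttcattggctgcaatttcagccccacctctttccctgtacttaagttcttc
Within 500000 bases on either side of Cyp3a13 lie 76 other annotated genes, of which 32 were tested. The test called 0 of these neighbours, while 5 were higher and 2 lower at an unadjusted p under 0.05, against 15% of all genes in either direction. Their smallest adjusted p were 0.0656 for Ap4m1 (log2 fold change 0.57), 0.0676 for Stag3 (-1.37) and 0.0814 for Azgp1 (1.24), all by limma. In the Kir2.1 experiment Cyp3a13 was at 115, 107 and 142 in controls and at 231, 145 and 124 in Kir2.1 mice, with overlapping groups (log2 fold change 0.41, SE 0.25, limma adjusted p = 0.633).

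Some marker lists of other cells also differed between the PEA groups, and their part in the result was not tested. Summed markers of basal cells (7 genes) lay between 1350 and 1397 normalized counts in controls and between 1485 and 1704 in exposed mice, without overlap. Sustentacular markers (9 genes) summed to 17858 to 24737 in controls and 23871 to 27162 in exposed mice, and 2 of the 9 were higher at an unadjusted p under 0.05. A large share of that sum is Cbr2 (means 7355 and 10775), while Sox2 ran from 361 to 782 in controls and 484 to 604 in exposed mice. Of 5 markers of Bowman glands and ducts, 2 were higher at an unadjusted p under 0.05, and their sums overlapped (2509 to 5607 in controls and 4489 to 5448 in exposed mice). For ensheathing glia and for stroma, 2 of 4 markers each were lower at that limit. Of 4 tested markers of respiratory secretory cells, 3 were higher at an unadjusted p under 0.05 and 1 passed the adjustment, while the sum of that list overlapped between groups (54079 to 106543 and 57811 to 66648) and its defining gene Scgb1a1 was at 0 in every mouse. Markers of hepatocytes, cells rich in Cyp3a enzymes, summed to 7.90 to 16.5 in controls and 7.42 to 10.3 in exposed mice. Control mouse 1 was the highest mouse of the PEA experiment for 13 of the 46 enzymes tested, and the others were highest for 0 to 7 each. It also had the highest vomeronasal sum (9894) and the highest sum of respiratory secretory markers (106543). Its sums were highest as well for ciliated respiratory cells (11079), stroma (11903.5), immune cells (512) and cartilage (937). They were lowest for Bowman glands and ducts (2509), immature neurons (3467) and erythroid cells (1768).

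The other tested P450 enzymes did not pass the adjustment, and 3 of them had groups that did not overlap. Cyp4f16 was at 43.0, 83.5, 82.7 and 71.6 in control mice and at 106, 111, 105 and 116 in exposed mice. Control mouse 1 was low for Cyp4f16, and all exposed mice were above all controls (log2 fold change 0.68, SE 0.21, limma adjusted p = 0.195). Cyp1a2 was at 737, 759.7, 653 and 679 in controls and at 868, 1189.5, 797 and 787 in exposed mice. The groups of Cyp1a2 did not overlap, and exposed mouse 2 was highest (log2 fold change 0.35, SE 0.14, limma adjusted p = 0.286). Cyp2e1 was at 65.5, 65.5, 63.4 and 88.0 in controls and at 52.7, 49.9, 55.4 and 38.4 in exposed mice, the only tested enzyme whose exposed mice were all lower (log2 fold change -0.52, SE 0.19, limma adjusted p = 0.252). With Cyp3a13, 3 tested enzymes were higher without overlap, against 5.46% of all genes tested, and 1 was lower, against 3.86%. Cyp2j13, under the limit of 10 and named after its values were seen, was at 1.49 to 4.29 in controls and 6.75 to 10.99 in exposed mice, also without overlap.

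Cyp4b1 was at 255.4, 155, 210.3 and 138 in controls and at 258, 235, 311 and 314 in exposed mice. The groups overlapped by control mouse 1 (log2 fold change 0.59, SE 0.20, limma adjusted p = 0.221). Cyp2s1 was at 83.5 to 172 in controls and 146 to 183 in exposed mice, and Cyp4f15 at 115 to 224 and 208 to 235. Both overlapped through 1 control mouse, mouse 1 for Cyp2s1 and mouse 2 for Cyp4f15, and neither passed the adjustment (limma adjusted p = 0.298 and 0.324). Cyp4f13 was lower on average, unlike Cyp4f15 and Cyp4f16, with a log2 fold change of -0.42 (limma adjusted p = 0.420).

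The most abundant P450 enzymes showed small differences. Cyp2a5 was at 33760.0, 27227, 29875 and 18304 in control mice and at 25149, 27697, 28978 and 27305 in exposed mice. The exposed mice lay within the control range (log2 fold change 0.03, SE 0.17, limma adjusted p = 0.950). Cyp2g1 was at 17983 to 22950.4 in controls and 21067 to 23765 in exposed mice (log2 fold change 0.07, SE 0.11), and Cyp2f2 at 3677 to 6616 and 4420.4 to 5641 (log2 fold change 0.07, SE 0.17). The sign turned with another scaling for Cyp2a5 (median centring) and Cyp2g1 (quantile normalization), and with single mice left out for Cyp2a5 and Cyp2f2. Cyp2a4 was between 1.09 and 6.71 in all 8 mice and was not tested. Cyp2b10 and Cyp1b1 had log2 fold changes of 0.07 and 0.06.

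Of the glucuronosyltransferases, 6 were tested, and none was higher or lower at an unadjusted p under 0.05. Ugt2a1 was at 25678, 27023, 26624 and 32925 in controls and at 30724, 23892, 27581 and 28520.2 in exposed mice. The Ugt2a1 groups overlap, with exposed mouse 2 lowest and control mouse 4 highest of the 8 mice (log2 fold change -0.02, SE 0.12, limma adjusted p = 0.961). Ugt2a2, Ugt1a6a and Ugt1a6b had log2 fold changes of -0.05, -0.01 and 0.03, and Ugt1a7c, at 20.9 to 45.3 in controls and 22.3 to 74.9 in exposed mice, one of 0.20 (SE 0.40).

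Of the glutathione transferases, Gstm1 had the smallest p in the PEA experiment. It was at 5357, 4661, 4259 and 5915 in control mice and at 7408, 7444, 6454 and 5570.2 in exposed mice. Exposed mouse 4 lay below control mouse 4, and the other exposed mice were above all controls (log2 fold change 0.41, SE 0.13, limma adjusted p = 0.203). Gsta4 and Gsta3 had log2 fold changes of -0.10 and -0.07, and the exposed mice lay within the control range for both. Gstm2, Gstm5, Gstp1 and Gstt1 ranged from -0.03 to 0.18, with overlapping groups. Gstk1 and Gsto1 were at -0.18 and -0.12.

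Gstp2 varied more between single mice than any group difference. It was at 8.28, 1.10, 3.73 and 201 in controls and at 138, 46.0, 0 and 89.4 in exposed mice, with 1 high control and 1 exposed mouse listed at 0 (log2 fold change 1.25, SE 1.68, limma adjusted p = 0.769). Its paralog Gstp1, a pi-class transferase, was at 831, 274, 749.6 and 618 in controls and at 509.7, 660.2, 649 and 525 in exposed mice. The 2 coding sequences are 98.1% identical and differ at 12 positions, of which 6 lie in the first 60 coding bases, shown with capitals where they differ because reads elsewhere in the gene often cannot separate the pair.
Gstp1: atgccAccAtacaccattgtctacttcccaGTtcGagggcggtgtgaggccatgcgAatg
Gstp2: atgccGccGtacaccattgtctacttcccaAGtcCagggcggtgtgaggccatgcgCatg
Of the 31-base words of Gstp2, 60.3% occur in another gene, mostly Gstp1, so the values of Gstp2 are uncertain.

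**Figure D4:**
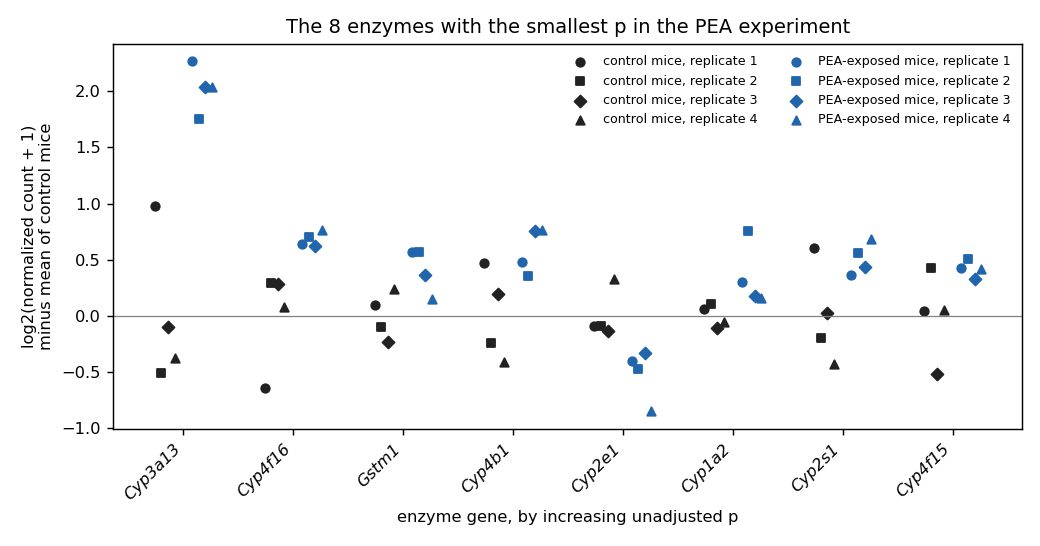
The 8 enzymes with the smallest unadjusted p in the PEA experiment, as log2(normalized count + 1) in each mouse minus the mean of the 4 control mice. Black symbols are control mice and blue symbols are PEA-exposed mice, and symbol shape gives the replicate number, which does not pair mice. All 4 exposed mice lie above all 4 controls for Cyp3a13, and the other 7 enzymes lie closer to the controls.

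By family, the tested Cyp4 genes had the highest median log2 fold change of the families with 4 or more tested genes in the PEA experiment, 0.28 over 8 genes with 5 above 0, while in the Kir2.1 experiment it was 0.10 over 10. The tested Gstm genes, which lie together on chromosome 3 (107895821 to 108044894), had 6 of 7 log2 fold changes below 0 in the Kir2.1 experiment (median -0.04) and 5 of 6 above 0 in the PEA experiment (median 0.06). These are counts over neighbouring genes that share sequence, and of the Gstm genes only Gstm1 in the PEA experiment had an unadjusted p under 0.05. Of the enzymes tested, 48 of 56 in the Kir2.1 experiment and 43 of 46 in the PEA experiment lay between the 5th and 95th percentile of the log2 fold changes of all genes.

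**Figure D5:**
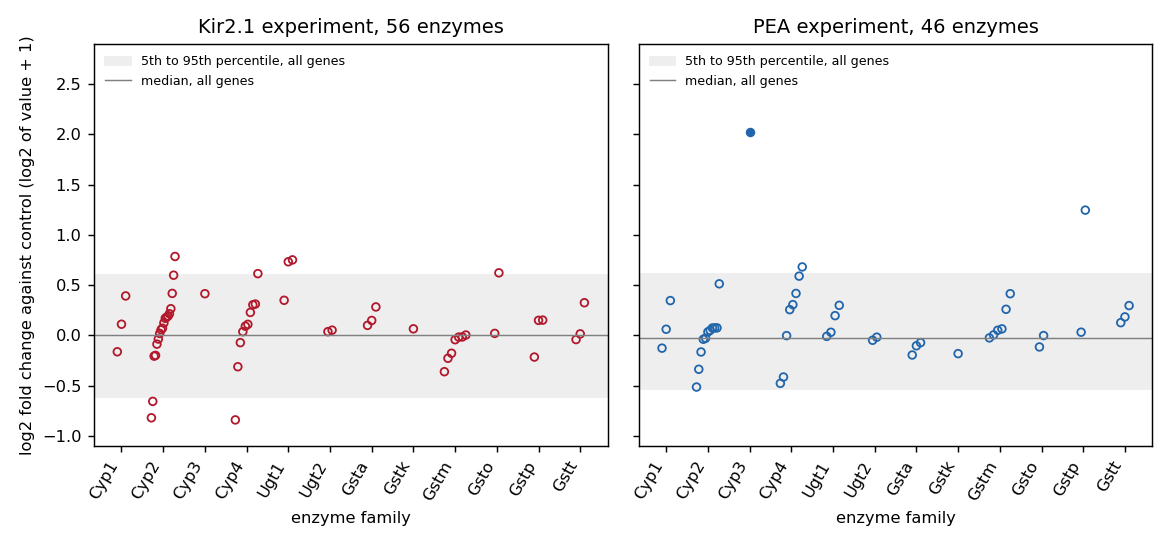
Log2 fold change against control (log2 of normalized count + 1) of each tested enzyme by family, in the Kir2.1 experiment (56 enzymes) and the PEA experiment (46 enzymes). The grey band spans the 5th to 95th percentile of all genes tested and the line their median, and the filled point, Cyp3a13 at 2.02, is the only enzyme with an adjusted p under 0.05.

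The enzymes work with partners, cosubstrates, exporters and regulators, and a list of 85 related genes held these and other metabolizing enzymes. Of the list, 35 were other genes of oxidation, reduction and hydrolysis and 16 were other conjugation genes. The rest were 4 P450 partners, 10 genes of cosubstrate supply, 12 regulators and 8 exporters. In the Kir2.1 experiment 80 of the 85 were tested and 0 passed the adjustment. At an unadjusted p under 0.05, 7 were higher and 4 lower (backgrounds 4.93% and 6.2%), and the median log2 fold change was 0.08. The smallest p belonged to Aldh1a2, which makes retinoic acid, at 536, 457 and 428 normalized counts in controls and 700.3, 654 and 607 in Kir2.1 mice (log2 fold change 0.47, limma adjusted p = 0.201). It was higher in all 3 Kir2.1 mice. Nqo1, a quinone reductase (log2 fold change -0.39, adjusted p = 0.285), Nfe2l2, a transcription factor of the response to oxidants (-0.25, adjusted p = 0.288), and Hpgds, a prostaglandin synthase of the glutathione transferase fold (0.80, adjusted p = 0.291), followed by limma.

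In the PEA experiment 81 of the 85 were tested and 0 passed the adjustment, with 4 higher and 3 lower at an unadjusted p under 0.05 (backgrounds 8.93% and 6.04%) and a median log2 fold change of 0.03. Cbr2, a carbonyl reductase that is also on the sustentacular list, was at 8709, 7255, 6237 and 7218 in controls and at 10286, 11453, 10309 and 11053 in exposed mice. All 4 exposed mice were above all controls for Cbr2 (log2 fold change 0.56, SE 0.11, limma adjusted p = 0.0847). Abcc3, an exporter of glucuronides (0.62, adjusted p = 0.146), Akr1b8, an aldo-keto reductase (-1.07, adjusted p = 0.157), and Fmo2, a flavin monooxygenase (-0.32, adjusted p = 0.218), followed by limma. The 4 P450 partners, among them the reductase Por, and the 12 regulators had no member at an unadjusted p under 0.05 in this experiment.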

How the data were processed

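The authors estimated transcript abundance with Salmon 1.3.0 against GRCm38 (Ensembl release 100), summed it by gene with tximport and scaled it with DESeq2 1.30.0, per the study's methods, which give a reverse-stranded read setting for every library although the Kir2.1 libraries are unstranded. The deposited values are this normalized signal per gene symbol. Some low values repeated in whole multiples within a mouse, such as 1.02007 (Cyp2c70) and 2.04014 (Cyp2d12) in Kir2.1 mouse 2. Others in the same mouse did not, such as 0.977913 (Cyp2j5). Whole reads were therefore not recovered, no count model was run, and the depth of each library is unknown.

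Groups came from the sample labels. Genes with a mean of at least 10 were tested within each experiment with limma 3.58.1 in R 4.3.3 on log2(value + 1), with a variance trend, the group as the only term, two-sided, and Benjamini-Hochberg adjustment over all genes tested, at a threshold of 0.05. Each mouse was treated as a separate replicate. Litter and cage, which the labels do not give, were not in the model. Tested on simulated data with 200 changed genes, the fit recovered 53.5% at a log2 fold change of 1 and 77% at 2 among 19807 genes in the Kir2.1 design, and 50.5% and 90% among 17322 genes in the PEA design. The changed genes were drawn from all genes tested, so recovery among the enzymes was not measured. The median SD of log2 values of enzymes and of all genes was 0.21 and 0.16 in Kir2.1 controls and 0.25 and 0.16 in Kir2.1 mice. It was 0.32 and 0.26 in PEA controls and 0.21 and 0.22 in exposed mice. Python 3.11.15 was used for tables and plots. GENCODE vM21 (GRCm38) gave exon lengths, positions and shared 31-base words, and all 115 enzymes matched it. RefSeq (GRCm38.p6) gave the promoters.

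Enzymes were named if they passed the adjustment, had one of the 8 smallest p or one of the 12 highest control levels per kb in an experiment, or were on a list known from the olfactory mucosa. Related genes were named if called or among the 4 smallest p. The enzymes and lists were chosen with earlier results of these data known. Alternatives were pseudocounts of 0.5 and 5, other filters, limma without trend or robust, quantile normalization, median centring, a replicate block, Xist and vomeronasal covariates, a threshold of 0.10 and each mouse left out in turn.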

Additional observations from a re-analysis of the deposited data

Results flagged for a closer look

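In the PEA experiment, 4 of 66 groups of 4 values had a mouse whose gap to the nearest other mouse was above Dixon's 95% critical value for that gap as a share of the group's range, and chance marks about 1 in 20 groups. Cyp2e1 was at 88.0 normalized counts in control mouse 4, above the other controls. Gstp2 was at 201 in control mouse 4, above the other controls. Cyp2j6 was at 1111 in control mouse 2, below the other controls. Gstt1 was at 69.5 in exposed mouse 1, below the other exposed mice.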

How the results depend on the processing

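The Kir2.1 experiment called 0 enzymes under every alternative run. Over all genes it called 70, and 20 without a variance trend, 44 with an Xist covariate, 22 with a vomeronasal covariate, 171 at a threshold of 0.10 and 23 to 44 with a mouse left out. The enzymes higher at an unadjusted p under 0.05 were 1 to 4 and those lower 1 to 3 with a mouse left out. Enzymes without overlap were 6 to 10 higher and 2 to 5 lower with a mouse left out, when fewer mice have to separate, and 2 were lower with no filter. With a mouse left out, the median log2 fold change ran from 0.013 to 0.13 and the related genes called from 0 to 1. The PEA experiment called 1 enzyme, Cyp3a13, and 0 without a trend, 0 with an Xist covariate and 0 to 1 with a mouse left out. Over all genes it called 31, and 52 with no filter, 19 with a vomeronasal covariate, 128 at a threshold of 0.10, where 1 related gene was called, and 19 to 43 with a mouse left out. With a mouse left out, enzymes higher at an unadjusted p were 4 to 6 and lower 0 to 2, those without overlap 3 to 5 and 1 to 2, and the median ran from -0.00015 to 0.12. Under the other alternatives 5 to 9 were higher, and the median ran from -0.0084 (median centring) to 0.047. Why the counts moved was not tested.

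The replicate block pairs mice by replicate number. Mice with the same number deviated from their group means with correlations of -0.06, -0.01 and 0.16 (Kir2.1 experiment) or 0.13, -0.02, -0.05 and 0.10 (PEA experiment), so the numbers were not taken as pairs. With the replicate block the Kir2.1 experiment called 9 genes and had 6 enzymes higher at an unadjusted p under 0.05, and the PEA experiment had 0 lower and an adjusted p of 0.0396 for Cyp3a13 by limma. The sign turned for Ugt2a1 in the Kir2.1 experiment (-0.0029 with median centring, -0.051 to 0.13 with a mouse left out). In the PEA experiment it turned for Cyp2g1 (-0.0056 with quantile normalization), Cyp2a5 (-0.016 with median centring, -0.15 to 0.15 with a mouse left out), Cyp2f2 (-0.047 to 0.24) and Ugt2a1 (-0.071 to 0.060). The depth of the libraries is unknown, so it is not known which low genes were limited by it.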
